A study of Caenorhabditis elegans with 4 samples.

Results

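The transcripts of 8 genes for mitophagy and for the shape and movement of mitochondria were followed in body-wall muscle cells of C. elegans embryos with and without the microRNA gene mir-1. The genes were dct-1, pink-1, pdr-1, drp-1, fis-2, fzo-1, eat-3 and miro-1. They were chosen by name for their function, with earlier results of these data known. All 8 were found among the 14463 genes of the count table. Muscle cells were profiled by QuantSeq in 4 libraries, 2 for each genotype, each from 5000 YFP-positive cells sorted out of dissociated embryos at the 1.5-fold stage. The wild-type strain, MLC2232, carried lucEx1207(myo-3p::YFP), an extrachromosomal array in which yellow fluorescent protein is made from the promoter of a body-wall muscle myosin gene. The mutant strain, MLC2277, carried that array together with the mir-1(luc108) allele on chromosome I. The sorted cells were thus those with YFP, and an array of this kind can be lost from some cells. The mir-1 gene was not analysed here, so the genotypes rest on the labels. The study describes the libraries of a genotype as duplicates, and p-values below measure the spread between these libraries only.

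Mitophagy is the removal of damaged or surplus mitochondria by autophagy. Damaged mitochondria can be marked by the kinase PINK1 and the ubiquitin ligase Parkin, or bound directly to the autophagy machinery by receptors of the outer membrane such as BNIP3, whose C. elegans homolog is DCT-1. Mitochondria also divide and fuse, through GTPases of the dynamin family, and are carried along the cytoskeleton by motor proteins that they hold through Miro GTPases. Muscle is rich in mitochondria, which lie between and beside the contractile filaments.

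QuantSeq gives reads from the 3′ end of each mRNA, and each molecule was counted once by its unique molecular identifier (UMI). The libraries held between 245336 and 453341 UMI counts. Levels are given in CPM, the counts scaled to a fixed total over the 5111 genes tested with TMM factors, and are not divided by gene length because a transcript gives reads from its 3′ end only. Across genes, which are not independent replicates, r was 0.943 between the second wild-type and first mutant libraries, the deepest of the 4, and 0.927 between the wild-type replicates. By the chi-square per degree of freedom of the counts the order of these pairs was the opposite, at 2.45 and 2.11. The first wild-type and first mutant libraries, at r 0.928 and a chi-square of 2.06, were closer than the wild-type replicates by both measures. The second mutant library was farther from the wild-type libraries, at r 0.902 and 0.918 and chi-squares of 3.30 and 3.05. Of the body-wall muscle markers listed, 16 of 16 were detected in every library, and their summed level was 30000 and 26850 CPM in wild type and 22056 and 20314 CPM in mir-1(luc108). The summed muscle markers were thus lower in both mutant libraries, and fewer muscle cells cannot be told apart from less of this RNA per cell. Markers of pharyngeal muscle (282 to 589 CPM), hypodermis (2656 to 3056 CPM), neurons (676 to 841 CPM) and intestine (115.3 to 425 CPM) overlapped between genotypes. For pharyngeal muscle and intestine the lowest level was in the first wild-type library and the highest in the second, so the wild-type replicates differed in these markers. Those of the germ line were at 21.3 and 12.8 CPM in wild type and 27.3 and 31.6 CPM in mir-1(luc108). The part of these marker levels in the results below was not tested.

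All 8 genes were detected in every library, at low to moderate levels. In wild type the order by mean level was dct-1, eat-3, fzo-1, miro-1, fis-2, pdr-1, drp-1 and pink-1. The libraries of dct-1 and eat-3, of eat-3 and fzo-1, and of pdr-1 and drp-1 overlapped in wild type, so that these neighbors did not differ beyond their spread. In mir-1(luc108), dct-1 stood above eat-3 without overlap, with a ratio of the means of 1.76, whereas in wild type that ratio was 1.12. The wild-type ratio rests on eat-3 at 89.7 CPM in the first library and 58.9 CPM in the second. Neither ratio takes counting error into account. The other gap in the mutant order lay between miro-1 and pdr-1, with a ratio of 1.99, and all other neighbors overlapped. The mean level of dct-1 over the 4 libraries exceeded that of 87.5% of the genes in the table, and that of drp-1 exceeded 48.8%.

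**Figure D1:**
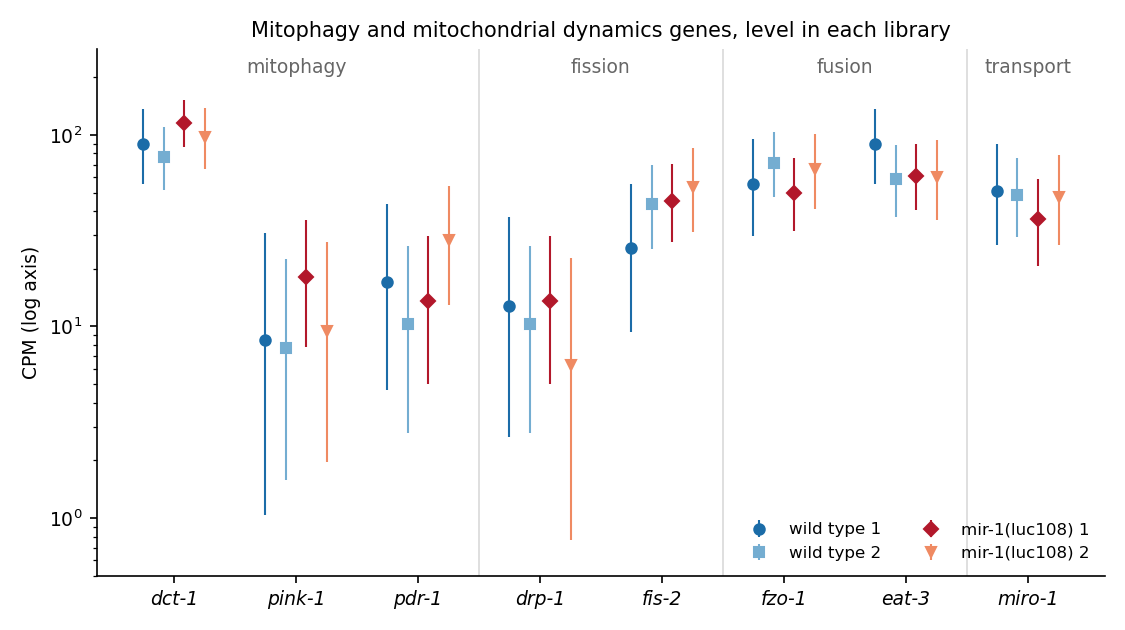
Level of each gene in each of the 4 libraries, in CPM on a log axis, with bars for the exact 95% Poisson interval of the count and genes grouped by role. dct-1 is at 76.8 to 115.9 CPM, and pink-1, pdr-1 and drp-1 lie below 30 CPM in every library with wide counting intervals.

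Of the 8 genes, 5 passed the filter on low counts and were tested (dct-1, fis-2, fzo-1, eat-3 and miro-1). In edgeR's quasi-likelihood test, none of the 5 reached an adjusted p of 0.05 (Benjamini-Hochberg, over all genes tested). At an unadjusted p below 0.05 the number was also 0. DESeq2 called 0 of the 8, but it called 0 genes over the whole table, so this says nothing particular about the 8. Over all 5111 genes tested, edgeR called 0.0196% higher and 0.0391% lower in mir-1(luc108), and 3.62% were higher and 4.58% lower at an unadjusted p below 0.05. For 2 of the 5 tested genes, dct-1 and fis-2, both mutant libraries lay above both wild-type libraries, beside 19.5% of all genes tested. For 1 of the 5, miro-1, both lay below, beside 18.9% of all genes tested. Over all 8 genes these numbers were 3 and 1, with pink-1 as the third higher gene, beside 15.2% and 13.8% of all genes in the table. The log2 fold change was above 0 for 2 of the 5 and below 0 for 3, beside 50.3% and 49.7% of all genes tested. Numbers of 3 or fewer genes are too small to set against these shares.

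**Figure D2:**
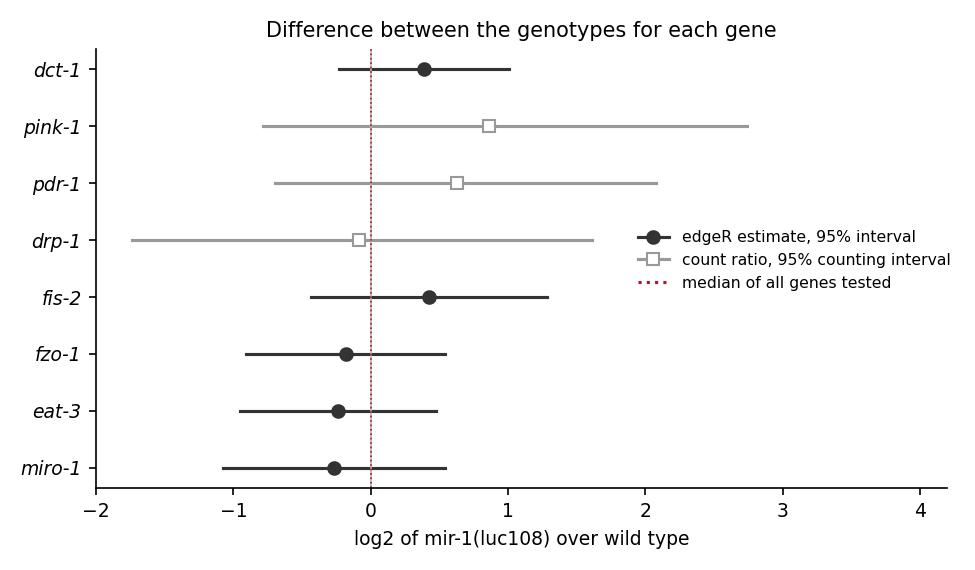
Difference between the genotypes for each gene, as the log2 of mir-1(luc108) over wild type, with 95% intervals. Filled circles are edgeR estimates for the 5 tested genes, open squares are count ratios with counting intervals for the 3 genes under the filter, and all 8 intervals include 0.

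dct-1 (WBGene00015776) encodes the receptor DCT-1 of the outer mitochondrial membrane, which promotes mitophagy. The gene is on the plus strand of chromosome X, between 7954354 and 7956225 in WBcel235. Its longest annotated 3′UTR, of 522 bp, is longer than those of 91.8% of 16805 protein-coding genes, whose median is 131 bp. UMI counts of dct-1 were 21 and 30 for wild type against 51 and 31 for mir-1(luc108). Scaled to depth, these were 89.7 and 76.8 CPM in wild type and 115.9 and 97.9 CPM in mir-1(luc108). Both mutant libraries were higher, and the gap between the nearest libraries, 89.7 and 97.9 CPM, was smaller than the gap between the replicates of either genotype. The means were 83.2 ± 9.06 CPM in wild type and 107 ± 12.7 CPM in mir-1(luc108) (SD, n = 2). The log2 fold change of 0.39 (SE 0.30) had a 95% interval from −0.23 to 1.01, or a 1.31-fold higher level with an interval from 0.850 to 2.01 (edgeR adjusted p = 0.807). The interval thus holds both no change and a level 2.01 times as high. Among all genes tested, 16.1% had a larger log2 fold change. The study that made these libraries singled out dct-1 as a predicted miR-1 target that was also higher in mutant muscle, partly from these same libraries. The direction of dct-1 here is therefore not independent evidence. That study also reported dct-1 as higher by quantitative PCR in whole mutant larvae, and mutated its predicted miR-1 binding sites. From these and further experiments it described dct-1 as a functional miR-1 target, which was not assessed here. The summed body-wall muscle markers were lower in both mutant libraries, and their part in the dct-1 values was not tested. The annotated end of dct-1 overlaps by 31 bp that of sfxn-2, which lies on the opposite strand and had 3, 5, 11 and 3 UMI counts in the order of the libraries above. How the counting treated strand is not given in the sources used here.

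pink-1 (WBGene00017137), on chromosome II from 5393293 to 5395694 on the minus strand, encodes the homolog of the kinase PINK1, which accumulates on damaged mitochondria. UMI counts were 2 and 3 for wild type against 8 and 3 for mir-1(luc108), or 8.54, 7.68, 18.2 and 9.47 CPM. Both mutant libraries were above both wild-type libraries, although 1 of them had the same 3 counts as a wild-type library. The ratio of mutant to wild-type counts, corrected for depth, was 1.82 with an exact 95% interval from 0.582 to 6.67. Such intervals cover counting error only.

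pdr-1 (WBGene00003967), on chromosome III from 13771513 to 13773345 on the plus strand, encodes the homolog of Parkin, a ubiquitin ligase that PINK1 activates in mammals. UMI counts of pdr-1 were 4 and 4 for wild type against 6 and 9 for mir-1(luc108), or 17.1, 10.2, 13.6 and 28.4 CPM. The genotypes overlapped, since the first mutant library lay between the wild-type libraries. The count ratio was 1.55 with an interval from 0.616 to 4.21. Its annotated end overlaps by 170 bp a gene on the same strand, mdt-29, a Mediator subunit gene with 13, 7, 9 and 4 UMI counts, so that reads there cannot be told apart between the pair and the values of pdr-1 are uncertain.

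Summed over pink-1 and pdr-1, the counts were 6 and 7 for wild type against 14 and 12 for mir-1(luc108), with a ratio of 1.65 and an interval from 0.818 to 3.50. With dct-1 added, the level of the 3 mitophagy genes was 115.3 and 94.8 CPM in wild type and 148 and 136 CPM in mir-1(luc108). The ratio of these sums was 1.39 with a counting interval from 1.01 to 1.93, which holds no spread between libraries. dct-1 supplied most of these counts, and no test was made of the sum.

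drp-1 (WBGene00001093), on chromosome IV from 5538488 to 5541365 on the plus strand, encodes the dynamin-related GTPase that constricts and divides the outer mitochondrial membrane. UMI counts of drp-1 were 3 and 4 for wild type against 6 and 2 for mir-1(luc108), or 12.8, 10.2, 13.6 and 6.31 CPM. The mutant libraries were the highest and the lowest of the 4. The count ratio of 0.943 had an interval from 0.299 to 3.06, so that neither a change of this size nor its direction was detectable at this depth.

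fis-2 (WBGene00001425), on chromosome X from 8283275 to 8285219 on the minus strand, encodes a homolog of FIS1, an outer membrane protein tied to fission. UMI counts of fis-2 were 6 and 17 for wild type against 20 and 17 for mir-1(luc108). In CPM, wild type was at 25.6 and 43.5 and the mutant at 45.4 and 53.7. Both mutant libraries were higher, but the second wild-type library was closer to the first mutant library than to its own replicate. The log2 fold change was 0.43 (SE 0.41), with a 95% interval from −0.43 to 1.29 (edgeR adjusted p = 0.869). It was 0.17 without the first wild-type library and 0.93 without the second. The annotated end of fis-2 overlaps by 27 bp that of ksr-1 on the opposite strand, which had 4, 6, 5 and 6 UMI counts.

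fzo-1 (WBGene00001509), on chromosome II from 5833328 to 5836203 on the minus strand, encodes the mitofusin that joins outer membranes. Its level was 55.5 and 71.7 CPM in wild type and 50.0 and 66.3 CPM in mir-1(luc108), from 13, 28, 22 and 21 UMI counts. The genotypes overlapped, and the replicates of each genotype were farther apart than the means. The log2 fold change was −0.18 (SE 0.35), with an interval from −0.91 to 0.54 (edgeR adjusted p = 0.948). Its sign turned when the second wild-type library was left out (0.043), as it did when the first mutant library was (0.024).

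eat-3 (WBGene00001134), on chromosome II from 9324874 to 9329665 on the plus strand, encodes the homolog of OPA1, which joins inner membranes and shapes cristae. Its level was 89.7 and 58.9 CPM in wild type and 61.3 and 60.0 CPM in mir-1(luc108), from 21, 23, 27 and 19 UMI counts. The first wild-type library stood above the other 3, which lay within a narrow range, and the genotypes overlapped. The log2 fold change was −0.24 (SE 0.34), with an interval from −0.95 to 0.48 (edgeR adjusted p = 0.933), and without the first wild-type library it was 0.042.

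Summed over both fusion genes, the level was 145 and 131 CPM in wild type and 111 and 126 CPM in mir-1(luc108). Both mutant sums were lower, although neither gene parted the genotypes alone. The ratio was 0.864 with a counting interval from 0.635 to 1.18, which includes no change. For both fission genes together, the sums were 38.4 and 53.8 CPM in wild type and 59.1 and 60.0 CPM in mir-1(luc108), with a ratio of 1.24 and an interval from 0.763 to 2.04.

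miro-1 (WBGene00019544), on chromosome IV from 4712825 to 4715807 on the minus strand, encodes a Miro GTPase that links mitochondria to motor proteins. It was at 51.2 and 48.7 CPM in wild type and at 36.4 and 47.4 CPM in mir-1(luc108), from 12, 19, 16 and 15 UMI counts. Both mutant libraries were lower, the second by a narrow margin. miro-1 had a log2 fold change of −0.27 (SE 0.39), with an interval from −1.08 to 0.54 (edgeR adjusted p = 0.931). Leaving out the first mutant library gave −0.072 and leaving out the second gave −0.45.

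**Figure D3:**
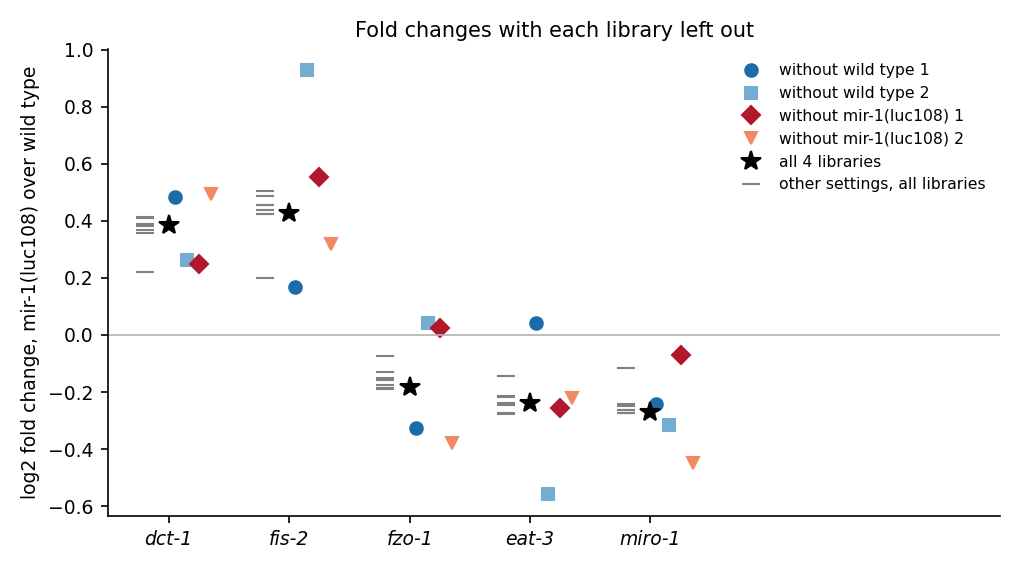
Log2 fold change of the 5 tested genes, by edgeR with all 4 libraries and with each library left out, and under the other settings. The other settings include DESeq2 without and with its prior, which shrinks the estimates. dct-1 stays between 0.22 (DESeq2 with the prior) and 0.49, fis-2 between 0.17 and 0.93, and fzo-1 and eat-3 cross 0 when a single library is left out.

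For dct-1 the log2 fold change stayed above 0 with each library left out, from 0.25 when the first mutant library was left out to 0.49 when the second was. Over all alternatives tried, its adjusted p lay between 0.776 and 1.00. With 2 libraries against 2, an exact two-sided permutation test of any single value cannot go below p = 0.333.

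The balance among the 8 genes was compared within each library, which needs no scaling between libraries. dct-1 took 25.6% of their UMI counts in the first wild-type library, with an exact Clopper-Pearson 95% interval from 16.6 to 36.4%, and 23.4% (16.4 to 31.7%) in the second. It took 32.7% (25.4 to 40.7%) in the first mir-1(luc108) library and 26.5% (18.8 to 35.5%) in the second. The mutant shares were both larger, but the intervals overlapped, and the second mutant share was within 1 percentage point of the first wild-type share. fzo-1 and eat-3 together took 41.5 and 39.8% in wild type against 31.4 and 34.2% in mir-1(luc108), again with overlapping intervals. Shares of the same total are tied to each other, so a larger dct-1 share leaves less for the other genes together. For pink-1 and pdr-1 together the shares were 7.32 and 5.47% in wild type against 8.97 and 10.3% in mir-1(luc108). drp-1 and fis-2 together held 9 of 82 and 21 of 128 counts in wild type against 26 of 156 and 19 of 117 in mir-1(luc108), and their shares overlapped. For miro-1 these counts were 12 and 19 in wild type against 16 and 15 in mir-1(luc108), with lower mutant shares. How often the shares of other genes part the genotypes was not assessed.

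**Figure D4:**
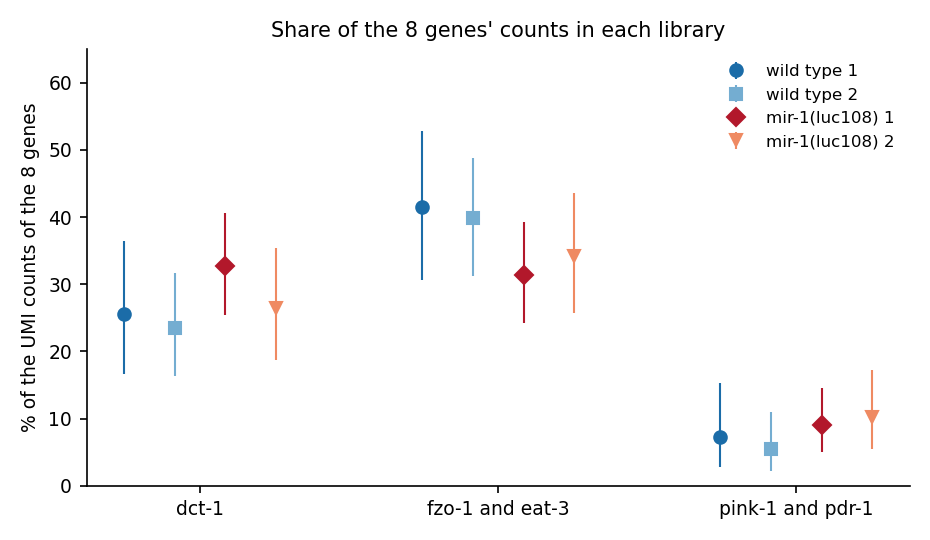
Share of the UMI counts of the 8 genes, in percent, held by dct-1, by fzo-1 with eat-3, and by pink-1 with pdr-1 in each library, with exact 95% binomial intervals. The mutant shares of dct-1 are 32.7 and 26.5% against 25.6 and 23.4% in wild type, and the intervals overlap.

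The summed level of all 8 genes was 350 and 328 CPM in wild type and 354 and 369 CPM in mir-1(luc108). Without dct-1 it was 260 and 251 CPM in wild type and 239 and 271 CPM in mir-1(luc108), with the genotypes overlapping and a count ratio of 0.991 (interval 0.799 to 1.23). The sum of the other 7 genes therefore lay within the spread between replicates.

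Other genes of the same processes were described with 4 lists. The lists hold regulators of mitophagy, proteins of fission, fusion and cristae, proteins of mitochondrial transport and anchoring, and proteins of mitochondrial import. Of 51 listed genes, 47 were found in the table and 39 were tested. Neither edgeR nor DESeq2 called any of them, and DESeq2 called 0 genes over the whole table. The number with an unadjusted p below 0.05 was 1 by edgeR and 0 by DESeq2. Of the 39, 1 gene lay higher in both mutant libraries and 8 lay lower, beside 19.5% and 18.9% of all genes tested. The median log2 fold change over the 39 was −0.061, beside 0.0030 over all genes tested. fis-1, miro-2, miro-3 and tin-9.2 were not analysed here.

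**Figure D5:**
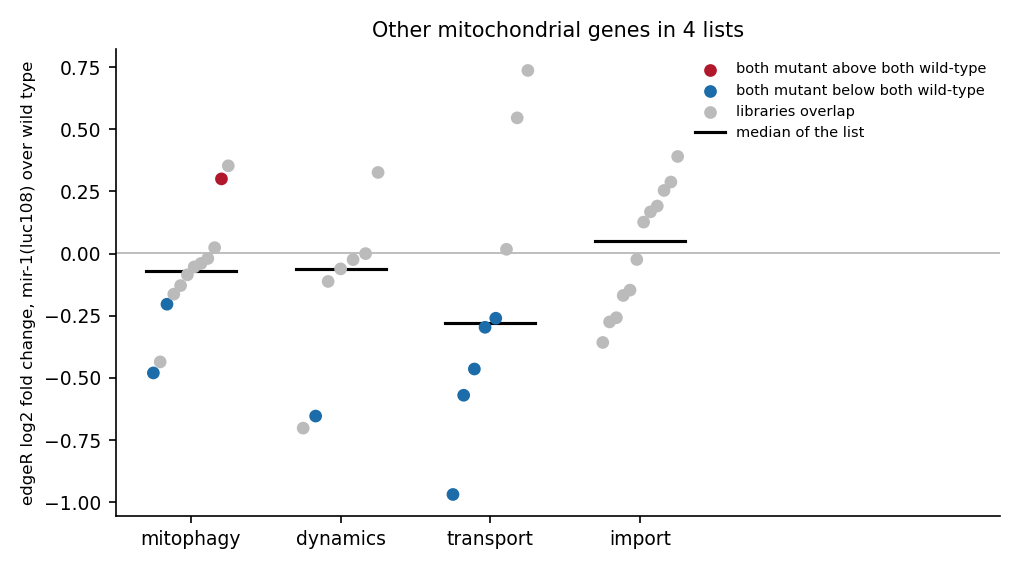
edgeR log2 fold change of the 39 tested genes of the 4 lists, with the median of each list as a bar and colors for genes whose libraries do not overlap between genotypes. Both mutant libraries are lower for 8 of the 39 genes, 5 of them in the transport list, and higher for 1, beside 18.9% and 19.5% of all genes tested.

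In the mitophagy list, 12 of 12 genes were tested, with 3 log2 fold changes above 0, 9 below 0 and a median of −0.069. The most abundant were the autophagosome membrane proteins lgg-1 and lgg-2, homologs of mammalian GABARAP and LC3. lgg-1 was at 986 and 814 CPM in wild type and 932 and 811 CPM in mir-1(luc108), with a log2 fold change of −0.039. lgg-2 was at 457 and 394 CPM in wild type and 450 and 344 CPM in mir-1(luc108), with a log2 fold change of −0.085. The libraries of both genes overlapped. The single gene of this list higher in both mutant libraries was skn-1, which encodes the Nrf transcription factor of stress responses. It was at 68.3 and 66.6 CPM in wild type and 86.3 and 78.9 CPM in mir-1(luc108), with a log2 fold change of 0.30 (edgeR adjusted p = 0.890). Of this list, 2 genes were lower in both, cps-6 and sqst-1. cps-6, which encodes the mitochondrial endonuclease G, was at 59.8 and 46.1 CPM in wild type and 38.6 and 34.7 CPM in mir-1(luc108), with a log2 fold change of −0.48 (edgeR adjusted p = 0.830). sqst-1, the homolog of the autophagy adaptor p62 and named after its values were seen, was at 141 and 133 CPM in wild type and 123 and 114 CPM in mir-1(luc108), with a log2 fold change of −0.20.

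In the list of fission, fusion and cristae proteins, 13 of 14 genes were found and 7 tested, with 2 log2 fold changes above 0, 5 below 0 and a median of −0.061. The most abundant were ced-9, the Bcl-2 homolog, and moma-1, a cristae protein. ced-9 was at 124 and 105 CPM in wild type and 86.3 and 126 CPM in mir-1(luc108). moma-1 was at 115.3 and 71.7 CPM in wild type and 79.5 and 94.7 CPM in mir-1(luc108). Both overlapped between genotypes. mtp-18, a homolog of an inner membrane protein tied to fission in mammals, was lower in both mutant libraries, at 34.2 and 33.3 CPM in wild type and 18.2 and 25.3 CPM in mir-1(luc108). mtp-18 had a log2 fold change of −0.65 (SE 0.52, edgeR adjusted p = 0.817).

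In the transport list, 10 of 12 genes were found and 8 tested, with 3 log2 fold changes above 0, 5 below 0 and a median of −0.28. For 5 of the 8, both mutant libraries were lower, beside 18.9% of all genes tested. This list was not tested against the others, and over all 4 lists together the number was 8 of 39. unc-116, the heavy chain of the motor kinesin-1, was at 68.3 and 53.8 CPM in wild type and 31.8 and 28.4 CPM in mir-1(luc108), from 16, 21, 14 and 9 UMI counts. The genotypes did not overlap. Its log2 fold change of −0.97 (SE 0.40) had a 95% interval from −1.80 to −0.14 and an edgeR adjusted p of 0.515, so that it was not called. It was the 1 listed gene with an unadjusted p below 0.05 (0.0246), and its unadjusted p was not below 0.05 in DESeq2 or with the first wild-type library or either mutant library left out. anc-1, which anchors nuclei and mitochondria to the cytoskeleton, was at 231 and 207 CPM in wild type and 199.95 and 161 CPM in mir-1(luc108), with a log2 fold change of −0.26. klc-2, a kinesin light chain, was at 141 and 102 CPM in wild type and 132 and 107 CPM in mir-1(luc108), and overlapped. Named after their values were seen, the other genes of this list lower in both mutant libraries were trak-1, an adaptor between Miro and motors, unc-16, a kinesin adaptor of the JIP3 family, and ric-7, which acts in mitochondrial transport in axons. Their log2 fold changes were −0.46 for trak-1, −0.57 for unc-16 and −0.30 for ric-7. The 3 log2 fold changes above 0 were those of klc-2, mtx-2 and jip-1. mtx-2, a metaxin of the outer membrane, was at 55.5 and 48.7 CPM in wild type and 50.0 and 129 CPM in mir-1(luc108), with a log2 fold change of 0.74 (SE 0.41, edgeR adjusted p = 0.711). Its libraries overlapped, and the second mutant library stood above the other 3. For jip-1, a homolog of the kinesin cargo adaptor JIP1, the log2 fold change was 0.55 (SE 0.62).

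In the import list, 12 of 13 genes were found and tested, with 6 log2 fold changes above 0, 6 below 0 and a median of 0.052. All 12 overlapped between genotypes. The most abundant were tomm-7, a small subunit of the outer membrane channel, at 598 and 902 CPM in wild type and 736 and 998 CPM in mir-1(luc108), and ddp-1, a small chaperone of the intermembrane space. ddp-1 was at 324 and 456 CPM in wild type and 386 and 480 CPM in mir-1(luc108). In both genes the first wild-type library was the lowest of the 4.

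Genes whose pattern over the 4 libraries was most like that of dct-1 were found by the root mean square difference between log2 CPM values, each centered on its own mean. The closest of 5110 genes were xbp-1 at 0.026, T10B5.4 at 0.028 and mtm-1 at 0.030. They were picked as the closest of many genes over 4 libraries, and no link to dct-1 was tested. xbp-1, the transcription factor of the unfolded protein response, was at 384 and 320 CPM in wild type and 493 and 423 CPM in mir-1(luc108). mtm-1, a homolog of the phosphoinositide phosphatase myotubularin, was at 29.9 and 25.6 CPM in wild type and 38.6 and 31.6 CPM in mir-1(luc108). Those values of mtm-1 came from 7, 10, 17 and 10 UMI counts, and counting error in the distances was not assessed. Within a distance of 0.1 of dct-1 lay 98 of the 5110 genes. The other tested members were not among them, with distances of 0.324 for eat-3, 0.350 for fis-2, 0.354 for miro-1 and 0.368 for fzo-1.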

How the data were processed

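The authors deposited unnormalized UMI counts per gene, made with UMI-tools, STAR on WBcel235 and HTSeq, of which the versions, the annotation release and the strand setting are not given in the sources used here. A count minimum of 10 (filterByExpr) left 5111 of 14463 genes. Genotypes were compared with edgeR 4.0.16 in R 4.3.3 (TMM factors, quasi-likelihood test, two-sided, Benjamini-Hochberg adjustment over all genes tested, threshold 0.05), a test checked on simulated counts. The 3 genes under the minimum were given as count ratios with exact conditional Poisson intervals. Alternatives were other scalings and filters, DESeq2 1.42.0, a replicate block, and each library left out. Gene positions and 3′UTRs come from Ensembl 115. Of 51 listed genes, 44 matched by symbol and 3 by locus tag. All 8 genes were named, with the 2 most abundant genes of each list, those farthest up and down among genes whose libraries did not overlap, and the 3 closest in pattern to dct-1. The genes and lists were chosen with earlier results of these data known. Libraries held 245336 to 453341 counts, so that a gene with few counts has a wide interval.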

Additional observations from a re-analysis of the deposited data

How the results depend on the processing

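The number of genes called over the whole table depended on the settings, while no setting called any of the 8 genes or any listed gene. edgeR called 1 gene higher and 2 lower in mir-1(luc108). Both DESeq2 fits, without and with the prior, called 0 and 0. There were 27 higher and 36 lower without a filter, and 19 and 31 with at least 4 counts in some library. DESeq2 size factors and upper-quartile factors each gave 2 higher and 3 lower, and library totals alone gave 1 and 1. Leaving out each library gave 0 to 2 higher and 0 to 27 lower genes, with 27 lower without the first wild-type library. The sign turned for fzo-1, whose values with a library left out ran from −0.38 to 0.043 (0.024 with the first mutant library left out), and for eat-3, from −0.56 to 0.042. The median of the transport list stayed below 0, from −0.31 to −0.18. For mitophagy the median ran from −0.28 to 0.045 and for import from −0.038 to 0.41. That of the fission, fusion and cristae list ran from −0.24 to 0.11. The cause was not tested. All 12 alternatives kept the sign of dct-1, fis-2 and miro-1. Of the genes under the count minimum, with a library left out, the log2 count ratio ran from 0.24 to 1.18 for pink-1, 0.090 to 1.15 for pdr-1 and −0.83 to 0.28 for drp-1. Where a single library of a genotype remains, it is assumed to vary like the others.

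Libraries of the same number are not paired by the labels, and their deviations correlated at 0.013 over 5111 genes. With the replicate number as a block, edgeR called 28 genes higher and 59 lower, and the log2 fold change was 0.36 for dct-1 (adjusted p = 0.776), 0.50 for fis-2, −0.13 for fzo-1, −0.27 for eat-3 and −0.25 for miro-1. At 2 to 51 UMI counts per library, counting error alone limits what can be seen in each of the 8 genes.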
